A study of Mus musculus with 12 samples.

Results

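PSGL1, the protein product of Selplg, is a mucin on leukocytes that binds selectins once a set of Golgi enzymes has decorated it. The RNA of Selplg and of 9 genes for such enzymes (C1galt1, Gcnt1, B4galt1, St3gal4, St3gal6, Fut4, Fut7, Tpst1 and Tpst2) was followed here across 4 populations of splenic CD4 T cells. Every probe set that the platform annotation assigns to 1 of these symbols alone was taken, which gave 18 of the 45101 probe sets on the array and 10 of 18193 named genes. The enzymes account for 17 of the 18 probe sets: 5 for St3gal6, 3 for C1galt1, 2 each for Gcnt1 and Fut4, and 1 for each of the others.

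The cells came from female MRL/Faslpr mice, a lupus-prone strain in which all groups, naive cells included, carry the mutant lpr allele of the death receptor gene Fas. RNA was hybridised to 12 single-colour Affymetrix whole-genome mouse arrays, 3 per population. The populations were CD62Llo PSGL1lo, CD62Llo PSGL1hi and CD62Lhi PSGL1hi cells, sorted from the TCRb+ CD4+ B220- CD44+ spleen cells of mice aged 16 to 24 weeks, and naive TCRb+ CD4+ B220- CD62Lhi CD44lo cells from mice aged 6 to 8 weeks. In any comparison with naive cells, age and population cannot be told apart. The labels call the 3 arrays of a population technical replicates while the study's design text speaks of independent sorts, so a p-value here covers only the spread between these samples, which may be technical. The free-text description of the CD62Llo PSGL1hi samples names a different gate, and their titles were followed. In bulk RNA, fewer cells that express a gene and less RNA per cell cannot be told apart.

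Selectin binding by PSGL1 depends on sugar chains built on its serines and threonines. The core chain is started by GalNAc transferases, extended by C1galt1, branched by Gcnt1, lengthened by galactosyltransferases such as B4galt1, capped with sialic acid by sialyltransferases such as St3gal4 and St3gal6, and fucosylated by Fut7 and Fut4; P-selectin binding also uses sulfated tyrosines, which Tpst1 and Tpst2 make. In CD4 T cells the branching and fucosylation steps are known to be acquired on activation, which lets effector cells roll on inflamed endothelium, whereas naive cells carry PSGL1 that binds selectins poorly. Low surface PSGL1 is known in this strain as a mark of CD4 T cells that help B cells outside the follicles.

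Each deposited value is a ratio, in which a probe set's signal on 1 array is divided by the median of that probe set over all 12 arrays. Ratios compare arrays for 1 probe set and cannot be set against the ratios of another. They give neither brightness nor detection. The array medians lay between 0.967 and 1.022, and the median standard deviation between replicates was 0.15 log2 units in CD62Llo PSGL1lo, 0.12 in CD62Llo PSGL1hi, 0.14 in CD62Lhi PSGL1hi and 0.10 in naive cells. As to the gates, Cd44 had ratios of 1.08 to 1.40 in CD62Llo PSGL1lo cells, 1.03 to 1.16 in CD62Llo PSGL1hi cells and 0.772 to 0.972 in CD62Lhi PSGL1hi cells, against 0.0752 to 0.0842 in naive cells. The T cell receptor component Cd3e stayed between 0.852 and 1.08 on all arrays.

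Selplg RNA was low in one population only. Its ratios were 0.118, 0.127 and 0.153 in CD62Llo PSGL1lo cells, 0.977, 0.906 and 1.095 in CD62Llo PSGL1hi cells, 0.95, 1.071 and 1.111 in CD62Lhi PSGL1hi cells, and 1.147, 1.121 and 1.023 in naive cells. Because PSGL1 was a sort marker, these values describe the gate and carry no test. The 3 CD62Llo PSGL1lo arrays lay apart from all others, and the remaining 9 arrays overlapped. CD62Llo PSGL1lo cells differed by -2.91 log2 units from CD62Llo PSGL1hi cells (7.51-fold lower), by -2.98 from CD62Lhi PSGL1hi cells and by -3.05 from naive cells. After quantile normalisation these differences were -2.39, -2.47 and -2.49. The PSGL1hi populations differed little from naive cells, which were not gated on PSGL1, by -0.15 log2 units for CD62Llo PSGL1hi and -0.07 for CD62Lhi PSGL1hi cells. CD62Llo PSGL1hi minus CD62Lhi PSGL1hi was -0.07 log2 units, and since both populations were gated on high PSGL1 this too is a description of the gate.

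**Figure D1:**
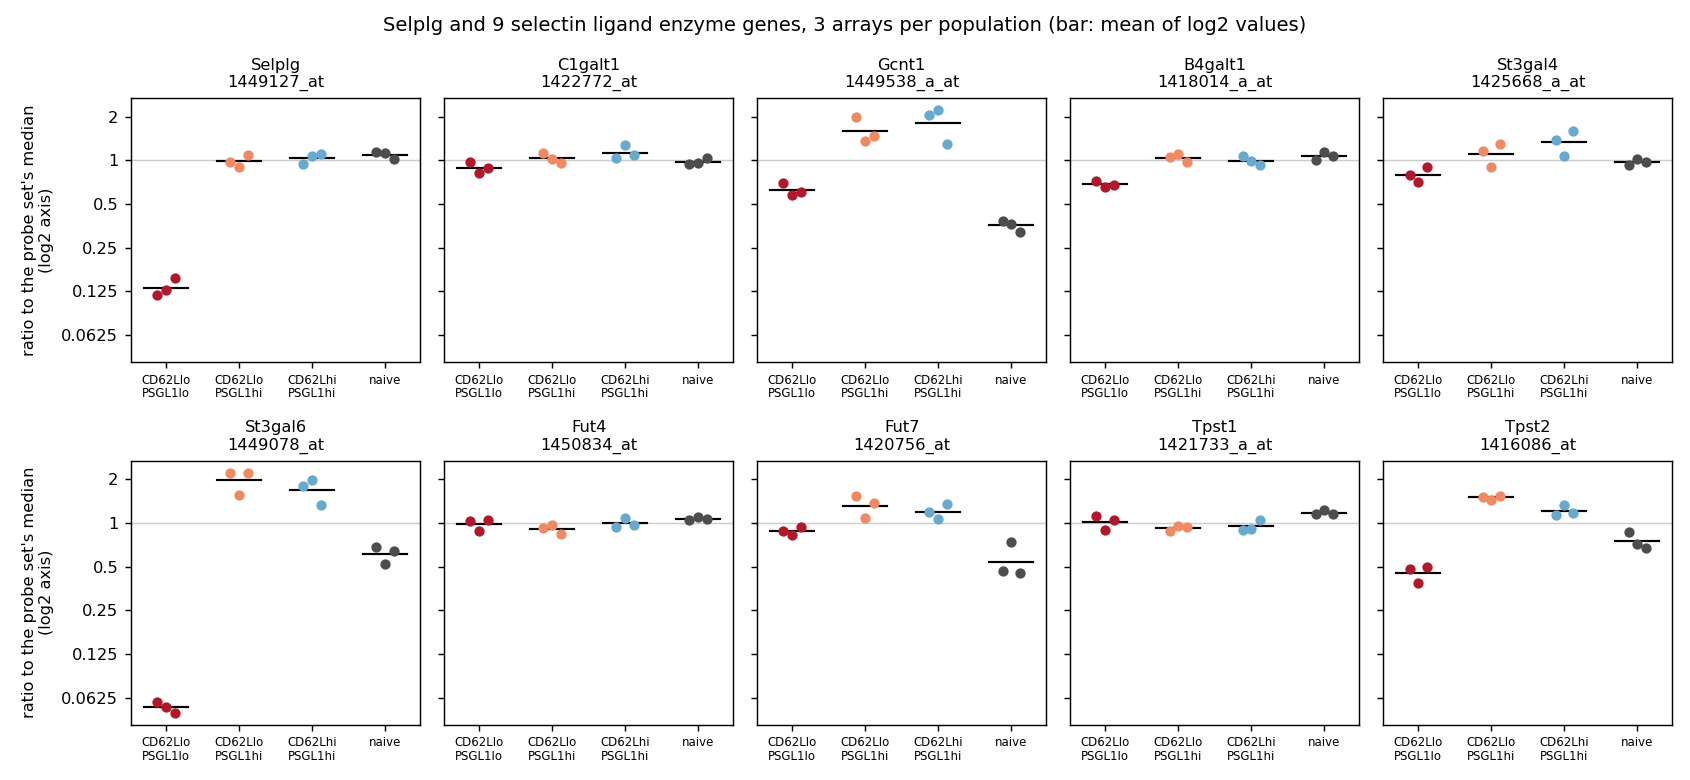
Ratio of each array to the probe set's median over 12 arrays (log2 axis) for Selplg and the 9 enzyme genes, 1 probe set per gene, in CD62Llo PSGL1lo, CD62Llo PSGL1hi, CD62Lhi PSGL1hi and naive CD4 T cells; points are the 3 arrays of a population and bars their mean log2 value. Selplg, St3gal6, Tpst2 and B4galt1 are lowest in CD62Llo PSGL1lo cells, Gcnt1 and Fut7 are lowest in naive cells, and Fut4 stays between 0.834 and 1.096.

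The comparison of CD62Llo PSGL1lo with CD62Llo PSGL1hi cells asks how the enzymes differ between populations that share age and the CD62Llo and CD44+ gates and differ in the PSGL1 gate. St3gal6, Tpst2, Gcnt1 and B4galt1 were all lower in CD62Llo PSGL1lo cells, St3gal6 by far the most, and no enzyme probe set was called higher. Of the 17 enzyme probe sets, 6 were called lower (4 genes) and 0 higher at a limma p under 0.05 after Benjamini-Hochberg adjustment over 45037 probe sets. Over all probe sets, 4.97% were called lower and 3.41% higher. The genes were chosen with earlier results of these data known, so counts set beside such shares are descriptions only. The 3 arrays of CD62Llo PSGL1lo cells lay below all 3 of CD62Llo PSGL1hi cells for 11 of the 17 enzyme probe sets and above them for 0, beside 11.4% and 9.54% of all probe sets. The median difference was -0.41 log2 units over the enzyme probe sets and 0.0025 over all probe sets. These 6 calls stood under every alternative fit run on them and without any 1 array.

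St3gal6, which caps lactosamine chains with sialic acid and contributes to selectin ligands of mouse leukocytes, had the widest range of the 10 genes. On probe set 1449078_at its ratios were 0.0583, 0.0541 and 0.0492 in CD62Llo PSGL1lo cells, 2.226, 1.569 and 2.202 in CD62Llo PSGL1hi cells, 1.805, 1.977 and 1.321 in CD62Lhi PSGL1hi cells, and 0.679, 0.524 and 0.637 in naive cells. The CD62Llo PSGL1lo arrays were the lowest, the naive arrays intermediate and the PSGL1hi populations highest and overlapping, with no overlap between these 3 levels. CD62Llo PSGL1lo cells were 36.7-fold below CD62Llo PSGL1hi cells (log2 difference -5.20 ± 0.17, SE, n = 3 each; limma adjusted p = 4.52e-10). Probe set 1449079_s_at, whose suffix marks probes shared with other transcripts, ran the same way, with 0.0954, 0.0929 and 0.0802 in CD62Llo PSGL1lo cells against 1.814, 1.454 and 1.931 in CD62Llo PSGL1hi cells (-4.27 ± 0.12, limma adjusted p = 1.37e-10).

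The other 3 St3gal6 probe sets did not show this. Probe set 1443740_at ranged from 0.874 to 1.012 in CD62Llo PSGL1lo cells, 0.988 to 1.012 in CD62Llo PSGL1hi cells, 0.893 to 1.344 in CD62Lhi PSGL1hi cells and 0.914 to 1.158 in naive cells, with a difference of -0.09 ± 0.14 between CD62Llo PSGL1lo and CD62Llo PSGL1hi cells. For 1447841_x_at that difference was -0.14 ± 0.11. Probe set 1454246_at had 0.734, 0.840 and 0.905 in CD62Llo PSGL1lo cells against 1.005, 1.040 and 0.995 in CD62Llo PSGL1hi cells (-0.30 ± 0.09, limma adjusted p = 0.0713; 0.0444 without CD62Llo PSGL1lo replicate 3). Per the annotation, both probe sets with the large difference target the same curated RefSeq transcript, and the other 3 target other, uncurated sequence records. Whether those 3 respond to St3gal6 RNA in these cells was not tested.

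**Figure D2:**
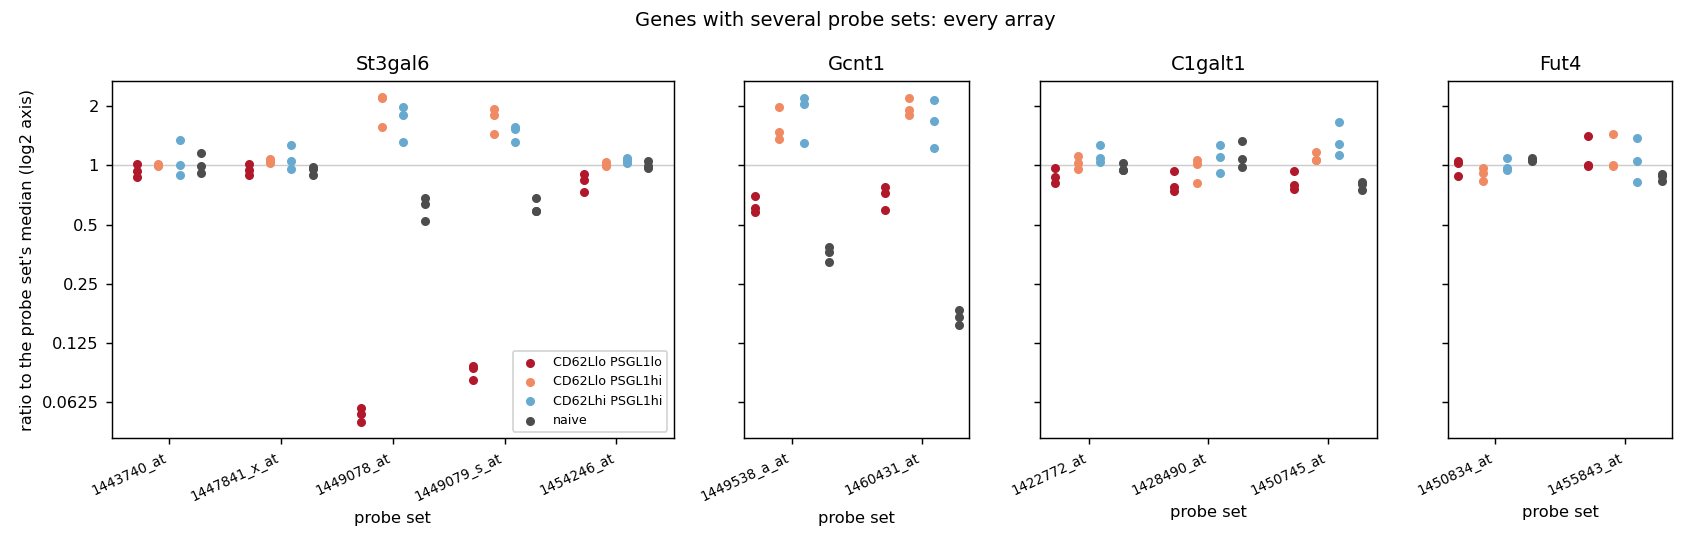
Ratios on every array (log2 axis) for the genes with several probe sets; each column of points is 1 population in the order CD62Llo PSGL1lo, CD62Llo PSGL1hi, CD62Lhi PSGL1hi and naive. Both Gcnt1 probe sets put naive cells lowest and CD62Llo PSGL1lo cells next, 2 of 5 St3gal6 probe sets show the large difference, and the 3 C1galt1 probe sets differ in where the naive arrays lie.

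Tpst2 makes sulfotyrosine on secreted and membrane proteins, PSGL1 among them. Its ratios were 0.478, 0.386 and 0.496 in CD62Llo PSGL1lo cells, 1.522, 1.439 and 1.541 in CD62Llo PSGL1hi cells, 1.139, 1.336 and 1.181 in CD62Lhi PSGL1hi cells, and 0.861, 0.718 and 0.674 in naive cells. No pair of populations overlapped, and the order of the populations was that of St3gal6. CD62Llo PSGL1lo cells were 3.33-fold below CD62Llo PSGL1hi cells (-1.73 ± 0.12, limma adjusted p = 4.79e-07). Tpst1, the gene of the other tyrosylprotein sulfotransferase, had 1.118, 0.894 and 1.050 in CD62Llo PSGL1lo cells against 0.880, 0.95 and 0.936 in CD62Llo PSGL1hi cells. These overlapped (0.14 ± 0.10, 95% interval -0.08 to 0.37, limma adjusted p = 0.581).

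Gcnt1 encodes the branching N-acetylglucosaminyltransferase that P-selectin binding by mouse T cells needs. On probe set 1449538_a_at its ratios were 0.696, 0.578 and 0.609 in CD62Llo PSGL1lo cells, 1.982, 1.358 and 1.477 in CD62Llo PSGL1hi cells, 2.061, 2.214 and 1.304 in CD62Lhi PSGL1hi cells, and 0.384, 0.364 and 0.322 in naive cells. Here the naive arrays were the lowest and CD62Llo PSGL1lo cells intermediate. The difference of CD62Llo PSGL1lo from CD62Llo PSGL1hi cells was -1.34 ± 0.19 (limma adjusted p = 0.00026), and on 1460431_at it was -1.51 ± 0.17 (limma adjusted p = 5.37e-05). B4galt1, which adds galactose to N-acetylglucosamine, had 0.715, 0.658 and 0.680 in CD62Llo PSGL1lo cells, 1.053, 1.105 and 0.975 in CD62Llo PSGL1hi cells, 1.073, 0.990 and 0.927 in CD62Lhi PSGL1hi cells, and 1.010, 1.136 and 1.076 in naive cells. Like Selplg it was low in CD62Llo PSGL1lo cells with the other 9 arrays overlapping, but its difference was smaller (-0.61 ± 0.09, limma adjusted p = 0.000679).

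The fucosyltransferases, St3gal4 and C1galt1 were not called between the CD62Llo populations. Fut7, the main fucosyltransferase of leukocyte selectin ligands, had 0.884, 0.826 and 0.938 in CD62Llo PSGL1lo cells against 1.542, 1.079 and 1.380 in CD62Llo PSGL1hi cells. The groups did not overlap, yet the difference of -0.58 ± 0.18 missed the threshold (limma adjusted p = 0.0638). With the replicate number as a block, a pairing that the CD44+ samples supported, it passed (limma adjusted p = 0.00349), as it did after quantile normalisation (0.0289) and in a fit of these populations alone (0.0452). Leaving out CD62Llo PSGL1hi replicate 2 gave 0.0331.

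St3gal4, a second sialyltransferase of selectin ligands, had 0.796, 0.704 and 0.904 in CD62Llo PSGL1lo cells against 1.151, 0.905 and 1.304 in CD62Llo PSGL1hi cells. The highest CD62Llo PSGL1lo array and the lowest CD62Llo PSGL1hi array nearly met (-0.47 ± 0.16, limma adjusted p = 0.0946; 0.00673 with the replicate block and 0.0344 without CD62Llo PSGL1hi replicate 2). C1galt1, which makes the galactose step shared by all branches, differed by -0.41 ± 0.13 on 1450745_at (limma adjusted p = 0.0815; 0.0297 with the replicate block and 0.0454 without CD62Llo PSGL1lo replicate 1). Its other probe sets differed by -0.22 ± 0.11 on 1422772_at and -0.24 ± 0.15 on 1428490_at, both with overlapping groups. Fut4, the second fucosyltransferase, differed by 0.12 ± 0.10 on 1450834_at and -0.01 ± 0.19 on 1455843_at, also with overlapping groups.

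CD62Lhi PSGL1hi cells gave a second setting for the same contrast, which shares the CD62Llo PSGL1lo arrays with the first and adds a difference in the CD62L gate. Of the 17 enzyme probe sets, 10 were called lower in CD62Llo PSGL1lo cells (6 genes) and 0 higher, beside 6.27% lower and 5.37% higher over all probe sets (limma, adjusted as above). The groups did not overlap for 11 of them, all lower, where 11.3% of all probe sets lay lower and 9.71% higher without overlap. St3gal6 differed by -4.96 ± 0.17 on 1449078_at and -4.04 ± 0.12 on 1449079_s_at, Tpst2 by -1.43 ± 0.12, Gcnt1 by -1.53 ± 0.19 and -1.25 ± 0.17, and B4galt1 by -0.54 ± 0.09. St3gal4 was lower as well: the same CD62Llo PSGL1lo values stood against 1.380, 1.072 and 1.600 in CD62Lhi PSGL1hi cells, with no overlap (-0.74 ± 0.16, limma adjusted p = 0.00593). C1galt1 on 1450745_at had 0.938, 0.756 and 0.799 in CD62Llo PSGL1lo cells against 1.658, 1.284 and 1.128 in CD62Lhi PSGL1hi cells, again without overlap (-0.69 ± 0.13, limma adjusted p = 0.00249).

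Further calls in this contrast were less firm. C1galt1 on 1422772_at (-0.36 ± 0.11, limma adjusted p = 0.0473) was no longer called with the replicate block (0.0641), and St3gal6 on 1454246_at (-0.37 ± 0.09, limma adjusted p = 0.0181) was lost without CD62Llo PSGL1lo replicate 1 (0.0761) or CD62Lhi PSGL1hi replicate 1 (0.0632). A fit of these populations alone called neither (0.166 and 0.111). The call of 1422772_at was also lost when CD62Llo PSGL1lo replicate 2 (0.142) or 3 (0.117), or CD62Lhi PSGL1hi replicate 2 (0.178) or 3 (0.0684), was left out. Fut7 (-0.44 ± 0.18, limma adjusted p = 0.159) and C1galt1 on 1428490_at (-0.42 ± 0.15, limma adjusted p = 0.109) were called only with the block, at 0.0166 and 0.0334, apart from 1428490_at without CD62Lhi PSGL1hi replicate 3 (0.046).

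In the fit without the replicate block, St3gal6, Tpst2, Gcnt1 and B4galt1 were thus called lower in CD62Llo PSGL1lo cells against both PSGL1hi populations. The bases before their transcription starts are printed for that reason. The list depends on this choice of fit. With the replicate block, Fut7, St3gal4 and C1galt1 (1450745_at) were also called lower than in CD62Llo PSGL1hi cells, and Fut7 also than in CD62Lhi PSGL1hi cells. Each is the 250 bases upstream of the furthest-upstream RefSeq start of the gene in GRCm38.p6, the C57BL/6J reference, 5′ to 3′ on the gene's strand. Capitals mark matches, on either strand, to 3 motifs: the T-box core GGTGTG, the GC box GGGCGG and the STAT palindrome TTCNNNGAA. Windows were found for 9 of the 10 genes.
St3gal6, chr16:58524254-58524503, minus strand: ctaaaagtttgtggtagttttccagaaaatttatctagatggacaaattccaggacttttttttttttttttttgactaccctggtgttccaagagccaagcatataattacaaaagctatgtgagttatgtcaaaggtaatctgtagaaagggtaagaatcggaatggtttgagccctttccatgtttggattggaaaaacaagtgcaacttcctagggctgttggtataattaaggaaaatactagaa
Tpst2, chr5:112276495-112276744, plus strand: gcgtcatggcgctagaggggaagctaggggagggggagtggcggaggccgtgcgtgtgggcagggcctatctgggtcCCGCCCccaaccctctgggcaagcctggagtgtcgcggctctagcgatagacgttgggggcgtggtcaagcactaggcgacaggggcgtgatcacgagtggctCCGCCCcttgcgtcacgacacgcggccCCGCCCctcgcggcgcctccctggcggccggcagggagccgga
Gcnt1, chr19:17372845-17373094, minus strand: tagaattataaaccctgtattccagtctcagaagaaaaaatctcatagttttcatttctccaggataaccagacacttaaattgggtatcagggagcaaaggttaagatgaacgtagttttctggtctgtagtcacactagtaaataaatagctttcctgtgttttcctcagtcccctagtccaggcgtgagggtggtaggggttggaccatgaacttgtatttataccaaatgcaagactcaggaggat
B4galt1, chr4:40853985-40854234, minus strand: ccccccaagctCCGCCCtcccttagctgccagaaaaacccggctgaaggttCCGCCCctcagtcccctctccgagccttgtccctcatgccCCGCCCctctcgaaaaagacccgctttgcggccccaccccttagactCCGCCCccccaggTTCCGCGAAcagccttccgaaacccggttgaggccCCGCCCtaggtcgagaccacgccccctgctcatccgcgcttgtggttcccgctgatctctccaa
The windows of St3gal6 and Gcnt1 held 0 matches to any of the 3 motifs. The window of Tpst2 held 3 GC boxes, and that of B4galt1 held 5 GC boxes and 1 STAT palindrome. Among 32851 windows of the same length in the RefSeq table, 32.7% held a GC box, 16.3% the T-box core and 7.02% the STAT palindrome, and no match overlapped a match to another motif in the 4 windows. A match is a description of letters. Which start these cells use was not measured.

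No enzyme was called different between the PSGL1hi populations. Between CD62Llo PSGL1hi and CD62Lhi PSGL1hi cells 0 of the 17 enzyme probe sets were called in either direction by limma, 2 had an unadjusted p under 0.05, and 0 were called under the replicate block or with any array left out. Over all probe sets 0.395% were called higher and 0.839% lower in CD62Llo PSGL1hi cells. Groups that did not overlap made up 6.94% of all probe sets on the higher side and 7.34% on the lower side, and 1 of the 17, Tpst2, with 1.522, 1.439 and 1.541 in CD62Llo PSGL1hi cells against 1.139, 1.336 and 1.181 in CD62Lhi PSGL1hi cells (0.30 ± 0.12, 95% interval 0.04 to 0.56, limma adjusted p = 0.417). St3gal6 on 1449078_at differed by 0.24 ± 0.17 (95% interval -0.13 to 0.60), Gcnt1 on 1449538_a_at by -0.19 ± 0.19 (-0.59 to 0.21), Fut7 by 0.14 ± 0.18 (-0.24 to 0.53) and B4galt1 by 0.07 ± 0.09 (-0.13 to 0.27). Several of these intervals reach past 0.5 log2 units, so equal levels were not shown.

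Against naive cells the enzymes split. In CD62Llo PSGL1lo cells the branching enzyme Gcnt1 and the fucosyltransferase Fut7 were higher than in naive cells, while St3gal6, Tpst2 and B4galt1 were lower. Of the 17 enzyme probe sets, 3 were called higher (2 genes) and 6 lower (4 genes), beside 9.53% and 10.6% of all probe sets (limma, adjusted as above). After quantile normalisation 1 was called higher and 4 lower. The groups did not overlap for 4 that were higher and 9 that were lower, beside 13.1% and 21% of all probe sets. St3gal6 was 11.3-fold lower on 1449078_at (-3.50 ± 0.17) and 6.89-fold lower on 1449079_s_at (-2.78 ± 0.12). Tpst2 differed by -0.73 ± 0.12 (limma adjusted p = 0.000471) and B4galt1 by -0.65 ± 0.09.

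Gcnt1 gave different sizes by probe set in this comparison. On 1460431_at the ratios were 0.778, 0.725 and 0.590 in CD62Llo PSGL1lo cells against 0.168, 0.183 and 0.153 in naive cells, a difference of 2.05 ± 0.17 that was smaller after quantile normalisation and still called (0.80, limma adjusted p = 0.016). On 1449538_a_at it was 0.81 ± 0.19 (limma adjusted p = 0.00548), and 0.19 after quantile normalisation, where it was not called (limma adjusted p = 0.758). Fut7 had 0.884, 0.826 and 0.938 in CD62Llo PSGL1lo cells against 0.466, 0.738 and 0.455 in naive cells. Its groups did not overlap, with naive replicate 2 closest to the CD62Llo PSGL1lo arrays (0.71 ± 0.18, limma adjusted p = 0.0104). The Fut7 call was lost after quantile normalisation (0.41, limma adjusted p = 0.192) and without naive replicate 1 (0.0561) or replicate 3 (0.0595). Marginal among the lower calls were St3gal6 on 1454246_at (-0.28 ± 0.09, limma adjusted p = 0.0466) and C1galt1 on 1428490_at (-0.47 ± 0.15, limma adjusted p = 0.0472). The first was called only without CD62Llo PSGL1lo replicate 3, among the left-out arrays (limma adjusted p of 0.064 to 0.181 otherwise), and both were lost after quantile normalisation (0.188 for St3gal6 and 0.179 for C1galt1). The second was lost without CD62Llo PSGL1lo replicate 2 (0.131) or 3 (0.13) and without naive replicate 1 (0.197) or 3 (0.0906).

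**Figure D3:**
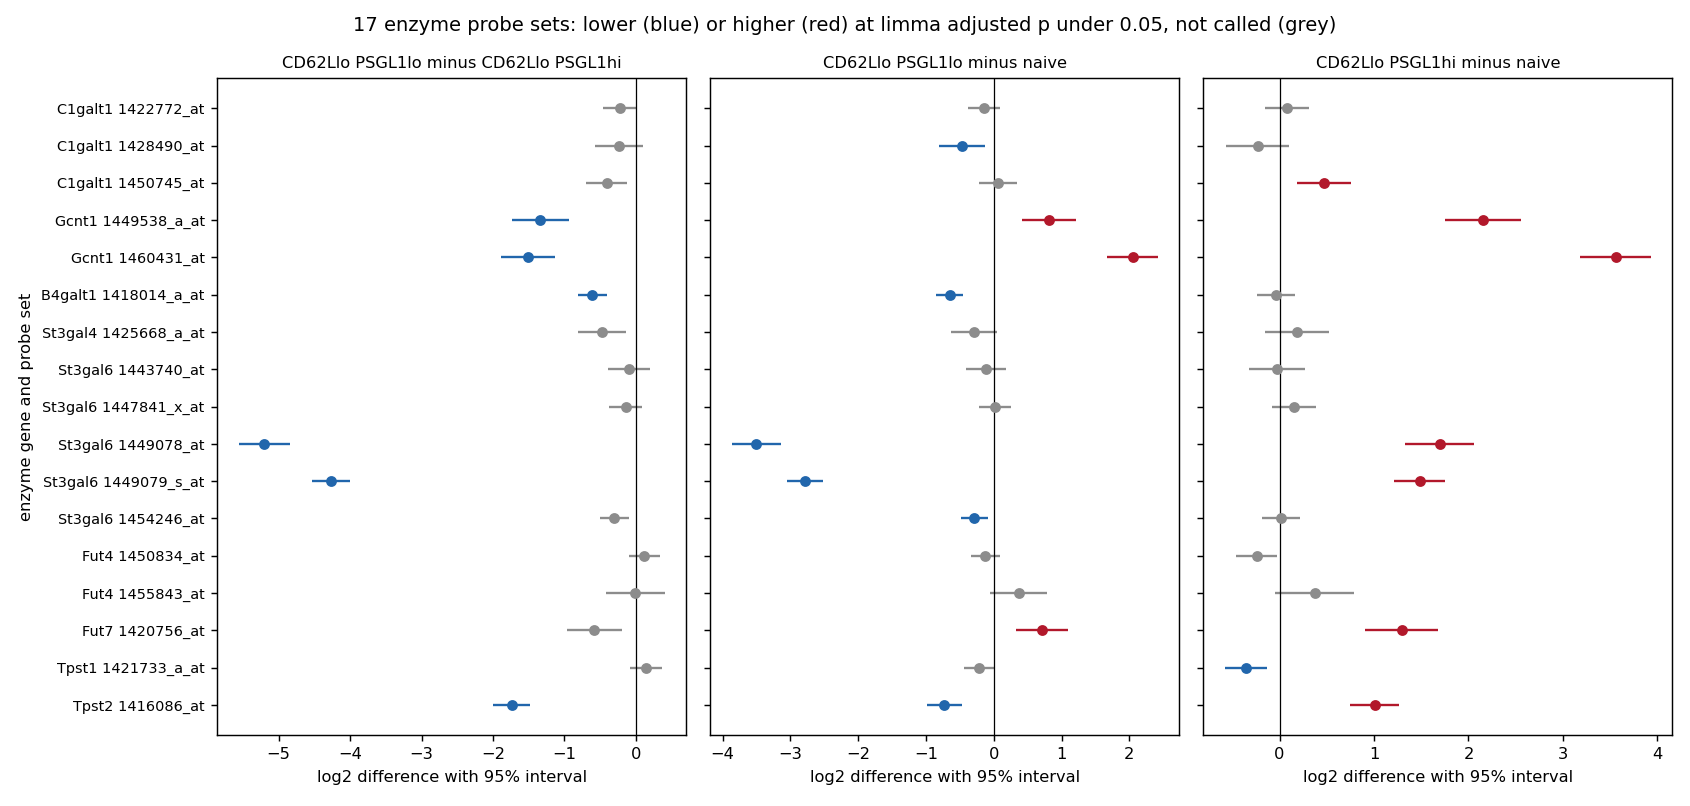
Log2 difference (x axis) of each of the 17 enzyme probe sets in 3 comparisons, with 95% intervals from limma; blue is called lower, red called higher, grey not called. The panel of CD62Llo PSGL1lo minus naive cells holds Tpst2 and St3gal6 (1447841_x_at apart, at 0.01) below 0 and Gcnt1 and Fut7 above 0, whereas all of these are above 0 in CD62Llo PSGL1hi minus naive cells, apart from 1443740_at of St3gal6.

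The PSGL1hi populations had more RNA of several enzymes than naive cells. In CD62Llo PSGL1hi cells 7 of the 17 enzyme probe sets were called higher (5 genes) and 1 lower, beside 9.1% and 8.16% of all probe sets. In CD62Lhi PSGL1hi cells 7 were called higher (5 genes) and 0 lower, beside 8.6% and 8.66% (limma, adjusted as above). Without overlap, 9 were higher and 2 lower in CD62Llo PSGL1hi cells, beside 16.8% and 22.3% of all probe sets, and 9 were higher and 1 lower in CD62Lhi PSGL1hi cells, beside 14.1% and 19.1%. These comparisons share the naive arrays. Markers listed for other cells moved in them as well. Of 5 plasma cell markers, 3 were called higher than naive in CD62Llo PSGL1hi cells and 4 in CD62Lhi PSGL1hi cells. Called in both were Jchain (3.31 ± 0.27 and 3.13 ± 0.27, in the same order), Irf4 (2.46 and 2.24) and Xbp1 (0.67 and 0.40). Sdc1 was called only in CD62Lhi PSGL1hi cells (1.47, against 0.21 in CD62Llo PSGL1hi cells), and Tnfrsf17 in neither (0.16 and 0.17). The list means were 1.05 to 1.21 and 1.14 to 1.45, in the same order, against 0.439 to 0.451 on naive arrays. Of 10 myeloid markers 1 was higher in each, Cd68 (3.02 ± 0.16 and 3.71 ± 0.16), and 4 were lower in CD62Llo PSGL1hi and 3 in CD62Lhi PSGL1hi cells, among them S100a8 (-3.76 ± 0.31 and -3.98 ± 0.31), with list means of 0.891 to 1.197 and of 0.935 to 1.16 against 1.52 to 1.64 on naive arrays. Of 7 CD8 T and NK cell markers 1 was higher (Klrd1, 1.83 ± 0.31) and 2 were lower in CD62Llo PSGL1hi cells, and 0 were higher and 2 lower in CD62Lhi PSGL1hi cells. Their part in the enzyme differences was not tested. Gcnt1 on 1460431_at had 2.206, 1.912 and 1.818 in CD62Llo PSGL1hi cells and 1.681, 2.164 and 1.222 in CD62Lhi PSGL1hi cells, which put CD62Llo PSGL1hi cells 11.8-fold (3.56 ± 0.17) and CD62Lhi PSGL1hi cells 9.81-fold (3.29 ± 0.17; 2.16 after quantile normalisation) above the naive values given before. On 1449538_a_at the Gcnt1 differences were 2.15 ± 0.19 in CD62Llo PSGL1hi and 2.35 ± 0.19 in CD62Lhi PSGL1hi cells.

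St3gal6 on 1449078_at was 3.24-fold above naive cells in CD62Llo PSGL1hi (1.69 ± 0.17) and 2.75-fold in CD62Lhi PSGL1hi cells (1.46 ± 0.17). Fut7 had 1.542, 1.079 and 1.380 in CD62Llo PSGL1hi cells and 1.187, 1.062 and 1.348 in CD62Lhi PSGL1hi cells against 0.466, 0.738 and 0.455 in naive cells. Every PSGL1hi array lay above every naive array (1.29 ± 0.18 and 1.15 ± 0.18, in the same order). Tpst2 differed by 1.01 ± 0.12 in CD62Llo PSGL1hi and 0.70 ± 0.12 in CD62Lhi PSGL1hi cells. B4galt1 differed by -0.04 ± 0.09 and -0.11 ± 0.09, with overlapping groups, and was not called.

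Among the remaining enzymes, C1galt1 depended on the probe set. On 1450745_at it was called higher than naive in CD62Llo PSGL1hi (0.47 ± 0.13, limma adjusted p = 0.0232) and CD62Lhi PSGL1hi cells (0.76 ± 0.13), the naive arrays being 0.824, 0.805 and 0.749. The CD62Llo PSGL1hi call was lost without CD62Llo PSGL1hi replicate 1 (0.0889) or 3 (0.0509) and without naive replicate 2 (0.0618) or 3 (0.0913). On 1428490_at the naive arrays were instead the highest on average, at 1.331, 0.986 and 1.085, and the PSGL1hi differences of -0.23 ± 0.15 and -0.05 ± 0.15 were not called. Both 1450745_at and 1422772_at target the same curated transcript, and on 1422772_at the differences were 0.08 ± 0.11 and 0.21 ± 0.11, not called.

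Tpst1 went the other way from Tpst2, with 0.880, 0.95 and 0.936 in CD62Llo PSGL1hi cells against 1.151, 1.233 and 1.158 in naive cells. The groups did not overlap, and the call (-0.36 ± 0.10, limma adjusted p = 0.0295) was lost whichever of the 6 arrays was left out (0.0587 to 0.111). In CD62Lhi PSGL1hi cells Tpst1 differed by -0.31 ± 0.10 (limma adjusted p = 0.0559; 0.0303 without CD62Lhi PSGL1hi replicate 3). St3gal4 in CD62Lhi PSGL1hi cells differed by 0.45 ± 0.16 from naive cells (limma adjusted p = 0.0683; 0.0155 without CD62Lhi PSGL1hi replicate 2). Fut4 was called in no comparison on either probe set. Its ratios on 1450834_at were 1.027, 0.879 and 1.048 in CD62Llo PSGL1lo cells, 0.917, 0.970 and 0.834 in CD62Llo PSGL1hi cells, 0.945, 1.086 and 0.973 in CD62Lhi PSGL1hi cells, and 1.053, 1.096 and 1.061 in naive cells.

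Taking the 4 populations together, a limma F test called 10 of the 17 enzyme probe sets, beside 23.7% of all probe sets. These belonged to St3gal6 (3 probe sets), Gcnt1 (both), Tpst2, Fut7, B4galt1, St3gal4 and C1galt1 (1 of 3). The order of mean levels from high to low was CD62Llo PSGL1hi, CD62Lhi PSGL1hi, naive and CD62Llo PSGL1lo for Tpst2 and for St3gal6 on 1449078_at and 1449079_s_at, and CD62Llo PSGL1hi, CD62Lhi PSGL1hi, CD62Llo PSGL1lo and naive for Fut7. For Gcnt1 it was that of Fut7 on 1460431_at, with the PSGL1hi populations exchanged on 1449538_a_at. The PSGL1hi populations, neighbours in these orders, were not called different for any enzyme probe set.

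Single markers of CD4 T cells and of other cells also differed between the CD62Llo populations. Of 7 CD4 T cell markers 1 was called lower in CD62Llo PSGL1lo cells (Trat1, -2.44 ± 0.19) and 0 higher. Differences of Cd3e, Cd3d, Cd3g, Cd4, Cd5 and Cd28 lay between -0.11 and 0.01 log2 units. The mean ratio of this list was 0.711 to 0.891 on CD62Llo PSGL1lo arrays against 1.01 to 1.11 on CD62Llo PSGL1hi arrays. Each list mean is taken over log2 values, so 1 gene with a large difference can move it. Of 7 measured CD8 T and NK cell markers 2 were called lower in CD62Llo PSGL1lo cells (Klrd1, -4.59 ± 0.31, and Klre1, -0.63 ± 0.15) and 0 higher. Klrk1 differed by -0.54 ± 0.17, and Cd8a, Cd8b1, Ncr1 and Klra8 by -0.10 to -0.01. The mean ratio of the list was 0.665 to 0.707 on CD62Llo PSGL1lo arrays against 1.06 to 1.35 on CD62Llo PSGL1hi arrays. For 8 B cell markers 2 were lower (Ms4a1 and Cd79b), with means of 0.778 to 0.851 against 0.957 to 1.02 on the same arrays; for 10 myeloid markers 1 was lower (Cd68), with means of 0.733 to 1.11 against 0.891 to 1.197. For 7 endothelial and stromal markers 2 were higher (Pecam1 and Kdr), with means of 1.03 to 1.12 against 0.865 to 0.898. No plasma cell, dendritic cell or erythroid and platelet marker was called between these populations. Against CD62Lhi PSGL1hi cells, Trat1 (-2.67), Klrd1 (-2.95), Ms4a1 (-1.91), Cd79b (-1.18), Cd68 (-2.48) and Sdc1 (-1.45) were called lower in CD62Llo PSGL1lo cells. Cd4 (0.59), Xbp1 (0.42), Irf4 (0.47), Pecam1 (0.80) and Kdr (0.48) were called higher. Between the PSGL1hi populations, Cd4 (0.59) and Klrd1 (1.63) were called higher and Sdc1 (-1.26) lower in CD62Llo PSGL1hi cells. Against naive cells, 4 of 10 myeloid markers were lower in CD62Llo PSGL1lo cells, among them S100a8 (-3.99 ± 0.31), and 2 were higher; the list's mean was 1.52 to 1.64 on naive arrays. Of 5 plasma cell markers 3 were higher in CD62Llo PSGL1lo than in naive cells, with means of 0.908 to 1.19 against 0.439 to 0.451. These were Irf4 (2.70), Jchain (2.59) and Xbp1 (0.82), while Sdc1 (0.02) and Tnfrsf17 (0.20) were not called. The ratios cannot show whether a marker is at background, and the part of these cells in the enzyme differences was not tested.

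The other genes of the pathway were read from 8 lists, on 1 probe set per gene, for 74 of 79 listed symbols measured. Between CD62Llo PSGL1lo and CD62Llo PSGL1hi cells 6 were called higher and 5 lower, beside 4.04% and 5.63% of 18193 genes, and the median difference was 0.01 log2 units in the lists and over all genes. Without CD62Llo PSGL1hi replicate 1 the counts were 4 higher and 3 lower. Of the 11 other sialyltransferases, 5 were called higher in CD62Llo PSGL1lo cells and 0 lower on the probe set chosen for each gene. Other probe sets of 2 genes in the list were called lower, one of the polysialyltransferase gene St8sia4 (-0.49 ± 0.13, limma adjusted p = 0.0342) and one of St6galnac4 (-0.37 ± 0.10, limma adjusted p = 0.0405), where the chosen probe sets gave -0.22 ± 0.12 and -0.57 ± 0.17 and were not called. St8sia1, which makes disialylated gangliosides, had 1.379, 1.447 and 1.631 in CD62Llo PSGL1lo cells against 0.618, 0.812 and 0.628 in CD62Llo PSGL1hi cells (1.12 ± 0.11; 1.77 after quantile normalisation). Naive cells had 1.302, 1.188 and 1.214, from which CD62Llo PSGL1lo cells were not called different (0.26 ± 0.11, limma adjusted p = 0.133). St3gal2 and St3gal1, which sialylate the unbranched core chain, differed by 0.64 ± 0.08 and 0.97 ± 0.18 (limma adjusted p = 0.000141 and 0.00244). St3gal2 had 1.492, 1.603 and 1.676 in CD62Llo PSGL1lo cells against 1.025, 1.010 and 1.027 in CD62Llo PSGL1hi cells, without overlap. St3gal1 had 2.062, 1.265 and 2.160 in CD62Llo PSGL1lo cells against 0.996, 0.825 and 0.915 in CD62Llo PSGL1hi cells, also without overlap. All other probe sets of these 3 genes were called the same way.

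Of 10 genes that start the chain or serve its core step, 3 were called lower in CD62Llo PSGL1lo cells and 0 higher. Galnt6 differed by -0.84 ± 0.14 and 1 of its 2 other probe sets was called the same way. Galnt3 differed by -1.12 ± 0.19, while 0 of its 2 other probe sets were called (-0.03 ± 0.12 and -0.07 ± 0.14). Galnt1 differed by -0.40 ± 0.11 (limma adjusted p = 0.0413), a call lost without CD62Llo PSGL1lo replicate 2 (0.114) or 3 (0.12) and CD62Llo PSGL1hi replicate 1 (0.2) or 2 (0.0956), and in a fit of these populations alone (0.117). B3gnt2, which extends lactosamine chains, was the 1 gene called of 12 in its list, higher by 0.91 ± 0.18. Spn, which encodes CD43, another mucin that carries branched chains on T cells, differed by -0.72 ± 0.11 and was the 1 gene called of 8 other ligand proteins. In the donor supply list, 1 of 17 genes was called, the GDP-fucose transporter Slc35c1 (-0.44 ± 0.11, limma adjusted p = 0.0238). That call was lost without CD62Llo PSGL1lo replicate 1 (0.0772) or 3 (0.0673), without CD62Llo PSGL1hi replicate 1 (0.107) or 2 (0.0626), and after quantile normalisation (0.0739). None of 9 other fucosyl- and sulfotransferases, 2 selectins or 5 partners of the PSGL1 tail was called in this comparison.

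**Figure D4:**
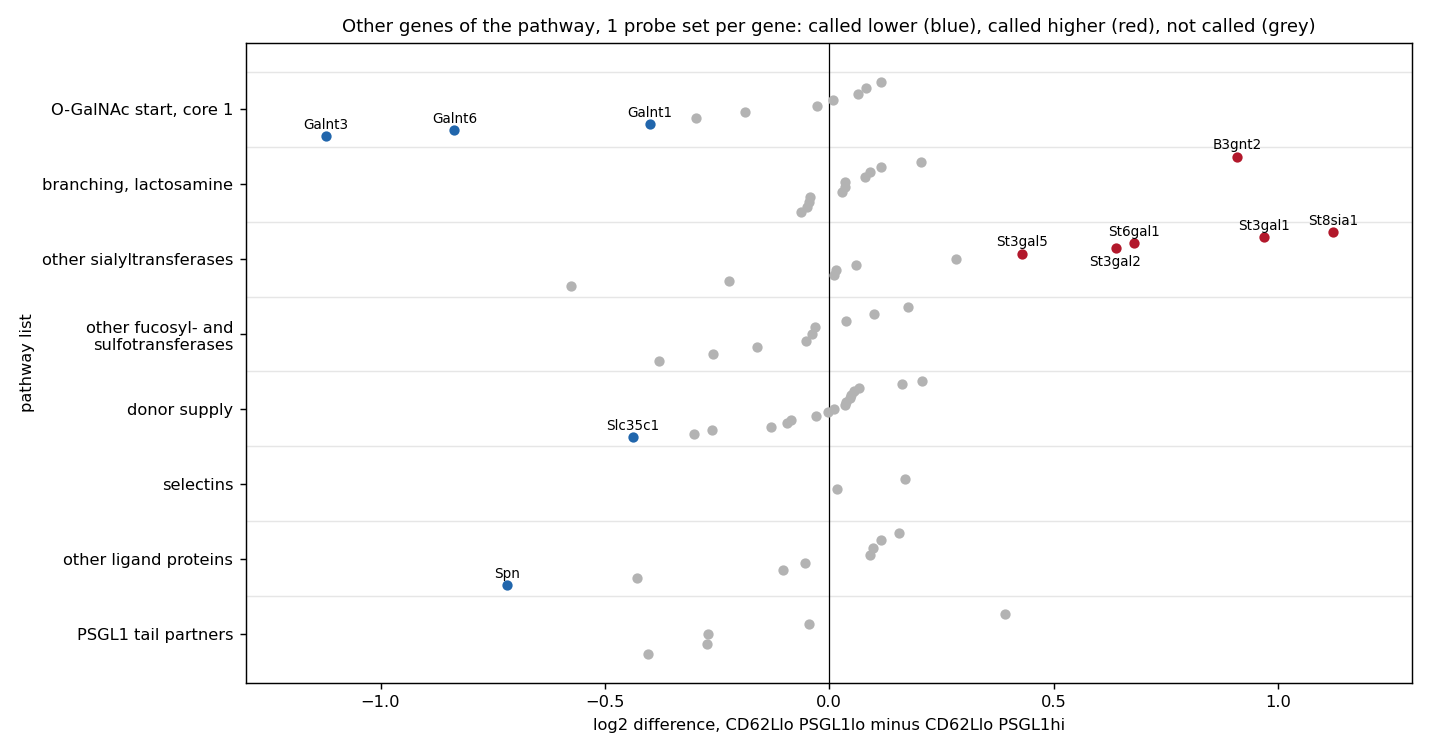
Log2 difference of CD62Llo PSGL1lo minus CD62Llo PSGL1hi cells (x axis) for 74 other genes of the pathway, 1 probe set each, in 8 lists; every called gene is labelled, red for higher and blue for lower. In the list of 11 other sialyltransferases 5 genes are called on the probe set shown, all higher (other probe sets of St8sia4 and St6galnac4, not plotted, are called lower), and the 3 called among the 10 genes of chain start and core step are all lower.

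In the remaining comparisons the pathway lists gave 8 higher and 6 lower genes for CD62Llo PSGL1lo against CD62Lhi PSGL1hi cells, beside 5.94% and 7.45% of all genes. A fit of these populations alone called 4 higher and 2 lower. St8sia1 (1.43 ± 0.11; 2.18 after quantile normalisation), St3gal2 (0.71 ± 0.08) and St3gal1 (0.95 ± 0.18) were again higher and Spn (-0.69 ± 0.11) lower. Among partners of the PSGL1 tail, Snx20 was called higher (0.58 ± 0.16, limma adjusted p = 0.0254) and Ezr lower (-0.46 ± 0.12, limma adjusted p = 0.0255). The 1 other Ezr probe set was not called lower. The remaining higher genes were B3gnt2, St3gal5, St6gal1 and St6galnac6, and the remaining lower genes Galnt1, Galnt6, Cd24a and Slc35c1. Within PSGL1hi cells 1 gene was called, beside 0.517% higher and 1.14% lower over all genes. This was Chst2, which sulfates N-acetylglucosamine, with 1.431, 1.275 and 1.721 in CD62Llo PSGL1hi cells against 0.808, 0.830 and 1.028 in CD62Lhi PSGL1hi cells (0.73 ± 0.16, limma adjusted p = 0.0402). The call was lost in a fit of these populations alone (0.0617) and with 5 of 6 arrays left out, namely CD62Llo PSGL1hi replicates 1 (0.116), 2 (0.0507) and 3 (0.181) and CD62Lhi PSGL1hi replicates 1 (0.148) and 2 (0.118). Of the 2 other probe sets of Chst2, 0 were called the same way.

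Relative to naive cells, the lists gave 15 higher and 9 lower genes in CD62Llo PSGL1lo cells, 12 and 8 in CD62Llo PSGL1hi cells, and 10 and 6 in CD62Lhi PSGL1hi cells. The shares over all genes were 10.7% higher and 11.2% lower in the first of these, 10.1% and 8.99% in the second, and 10% and 9.22% in the third. Chst2 had naive ratios of 0.169, 0.174 and 0.239 and differed by 2.55 ± 0.16 in CD62Llo PSGL1lo, 2.93 ± 0.16 in CD62Llo PSGL1hi and 2.21 ± 0.16 in CD62Lhi PSGL1hi cells, although 0 of its 2 other probe sets were called. After quantile normalisation the Chst2 difference was 1.37 in CD62Llo PSGL1lo and 0.99 in CD62Lhi PSGL1hi cells, still called. The core fucosyltransferase of N-glycans, Fut8, was higher in all 3 (0.64 ± 0.14, 0.90 ± 0.14 and 0.89 ± 0.14, in the same order), with 0 of its 2 other probe sets called. Galnt10 was lower in all 3 (-0.91 ± 0.09, -0.97 ± 0.09 and -1.09 ± 0.09), as was 1 of its 2 other probe sets. B3gnt2 was higher in all 3 (1.87 ± 0.18, 0.96 ± 0.18 and 0.90 ± 0.18), as was its 1 other probe set. From the donor supply list, Ugp2 was higher in all 3 (0.88 ± 0.14, 0.89 ± 0.14 and 0.67 ± 0.14), as were its 4 other probe sets. Galnt6 was lower in all 3 (-1.62 ± 0.14, -0.78 ± 0.14 and -0.99 ± 0.14). Its 2 other probe sets were called the same way in CD62Llo PSGL1lo and CD62Lhi PSGL1hi cells. St8sia1 was lower than naive in CD62Llo PSGL1hi (-0.86 ± 0.11) and CD62Lhi PSGL1hi cells (-1.16 ± 0.11), and by more after quantile normalisation (-1.54 and -1.95, in the same order). In CD62Llo PSGL1lo cells St8sia1 was not called against naive cells (0.26 ± 0.11).

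The genes whose 12 values came nearest to those of Selplg, by the root-mean-square difference of centred log2 ratios, were Ppp3ca (0.19 log2 units), Ppm1j (0.24), Crybg1 (0.27), Cd55 (0.30) and F2r (0.30). The nearest member was Tpst2, at 0.85. The Ppp3ca probe set, annotated to a calcineurin catalytic subunit, has the suffix for probes shared with other transcripts, as does that of F2r. The Ppp3ca probe set ranged from 0.111 to 0.131 in CD62Llo PSGL1lo cells and 1.06 to 1.18 in CD62Llo PSGL1hi cells. In CD62Lhi PSGL1hi cells it ranged from 0.869 to 1.08, and in naive cells from 0.972 to 1.11. Nearest to St3gal6 on 1449078_at were Il18r1 (0.66), Prf1 (0.71), F2r (0.74), Sema4a (0.74) and Il2ra (0.76), and the nearest member was Selplg, at 1.00. Here F2r was read on a different probe set with the same suffix. The Sema4a probe set has another suffix for cross-hybridisation. Prf1, which encodes perforin, ranged from 0.0871 to 0.139 in CD62Llo PSGL1lo cells, 1.67 to 2.35 in CD62Llo PSGL1hi cells, 1.61 to 2.13 in CD62Lhi PSGL1hi cells and 0.346 to 0.392 in naive cells. This likeness is a description over the 12 arrays, all of which shared 1 platform and 1 scaling.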

How the data were processed

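Signals of 12 arrays were made with MAS5, per the submitters' processing notes; no version or scaling target is given in the sources used here. The deposited values are linear ratios, made by dividing a probe set's signals by their median over the arrays: the median ratio lay within 0.002 of 1 for 99.7% of 45101 probe sets. No brightness or detection call was used, so signal over background is unknown, and no filter or pseudocount was applied. The number of arrays limits the precision; the median SE was 0.12 log2 units.

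The log2 ratios of 45037 probe sets (64 controls left out) were fitted with limma 3.58.1 in R 4.3.3, lmFit and eBayes without trend, 1 mean per population, two-sided, with Benjamini-Hochberg adjustment over all probe sets and calls under 0.05. The script was tested on simulated data. Pathway counts used 1 probe set per gene, preferring a curated target and no suffix for cross-hybridisation. Named genes were all members, 5 nearest genes each for Selplg and St3gal6, and the gate genes. Pathway genes were drawn mainly from the up to 3 called per list and comparison with the smallest p. Not all of these are named, and list counts cover all genes. Marker genes named in the text were chosen after their values were seen. Members and lists were chosen with earlier results of these data known.

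Replicate numbers, taken from the titles, were checked for pairing: deviations of same-numbered samples from their group means correlated at 0.14 to 0.45 in all 9 pairs of CD44+ samples and at -0.08 to 0.16 with naive samples. The number was therefore taken to pair the CD44+ samples only. Alternatives were quantile normalisation, median centring, a fit of 2 populations, a robust prior, 1 probe set per gene, the replicate block and each array left out. Promoter windows are RefSeq's (GRCm38.p6). Cd44 stayed out of pathway counts as a gate gene.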

Additional observations from a re-analysis of the deposited data

How the results depend on the processing

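Of 2076 alternative values of single probe sets, 1934 counted as unchanged, of which 28, uncalled, changed sign. A call was lost in 121 and gained in 18, and 0 called values reversed. Unchanged meant the same side of the threshold. For Selplg values without a test it meant a shift below the replicate standard deviation of the first population compared. The other 3 are Selplg after quantile normalisation, which moved by more. Apart from untested Selplg, size is not judged by this count. Quantile normalisation moved several called values well beyond their SE. For CD62Llo PSGL1lo against naive cells these included Gcnt1 on 1460431_at (0.80 in place of 2.05) and Chst2 (1.37 in place of 2.55). For CD62Llo PSGL1lo against CD62Llo PSGL1hi cells they included St8sia1 (1.77 in place of 1.12). Enzyme probe sets called ranged, with 1 array left out, over 6 to 8 for CD62Llo PSGL1lo against CD62Llo PSGL1hi, 0 to 0 for CD62Llo PSGL1hi against CD62Lhi PSGL1hi, 9 to 10 for CD62Llo PSGL1lo against CD62Lhi PSGL1hi, and against naive cells 6 to 8 for CD62Llo PSGL1lo, 6 to 7 for CD62Llo PSGL1hi and 7 to 8 for CD62Lhi PSGL1hi; the F test gave 9 to 11. Pathway genes called ranged over 7 to 11, 0 to 1 and 10 to 12 in the first 3 comparisons and over 20 to 26, 17 to 20 and 13 to 17 against naive cells. After quantile normalisation 5 enzyme probe sets (1 higher, 4 lower) were called for CD62Llo PSGL1lo against naive cells, where the fit as reported gave 3 higher and 6 lower; the cause was not tested. Counting 1 probe set per gene lowers counts by construction, to 6 genes for CD62Llo PSGL1lo against CD62Lhi PSGL1hi, 5 for CD62Llo PSGL1lo and 5 for CD62Llo PSGL1hi against naive cells, and 6 in the F test. A fit of the compared populations alone, with fewer samples, called 0 pathway genes for CD62Llo PSGL1hi against CD62Lhi PSGL1hi and 6 for CD62Llo PSGL1lo against CD62Lhi PSGL1hi (4 higher, 2 lower). With the replicate block, the pairing of CD44+ samples, the enzyme counts were 9, 0 and 11 in the 3 comparisons among CD44+ populations and the pathway counts 12, 2 and 15; the 2 were for CD62Llo PSGL1hi against CD62Lhi PSGL1hi, where 1 was called without it. Against naive cells, which the numbers did not pair, the block gave 9, 8 and 8 enzyme probe sets for CD62Llo PSGL1lo, CD62Llo PSGL1hi and CD62Lhi PSGL1hi, the one added call being St3gal4 in the third (limma adjusted p = 0.0135). Scalings moved the median of all probe sets by at most 0.04 log2 units.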
